A study of Mus musculus with 18 samples.

Results

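The genes described here are 10 components of the circadian clock and its BHLHE repressors: Bhlhe40, Bhlhe41, Nr1d1, Nr1d2, Per1, Per2, Cry1, Arntl, Clock and Dbp. They were chosen by gene symbol from the 23052 symbols that both count tables hold, and all 10 were present and passed the filter on low counts in both. RNA sequencing covered 18 libraries of bone marrow-derived macrophages from wild-type C57BL6/J mice, cultured in 80% DMEM with serum and 20% L929-conditioned medium until day 7. In the tolerant set, which the labels call endotoxin-tolerant macrophages, cells were kept with glutamine (Gln), without Gln, or without Gln but with α-ketoglutarate (AKG), a metabolite that cells make from Gln, with 4 libraries per group. In the stimulation set, cells were untreated controls or had received interleukin-4 (IL-4) for 6 h or lipopolysaccharide (LPS) for 6 h, with 2 libraries per group. The tolerant set has no group without endotoxin. The labels give no dose, no hour of the day at collection, and no word on whether replicates are separate animals or cultures, so p-values measure only the spread between these libraries.

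The circadian clock is a feedback loop of transcription. ARNTL (BMAL1) and CLOCK pair up and switch on genes through E-box sequences, among them Per1, Per2 and Cry1, whose proteins then block the pair. The same pair switches on Nr1d1 and Nr1d2, whose products REV-ERBα and REV-ERBβ repress Arntl, and Dbp, an output factor that binds D-box sequences. BHLHE40 and BHLHE41 (DEC1 and DEC2) are repressors that also bind E-boxes and so act on the same promoters. In macrophages REV-ERB proteins are known to restrain inflammatory genes, and BHLHE40 is known to restrain Il10.

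The E-box and the REV-ERB element are shown in the promoters in which they were found, since these letters tie the members to each other. RefSeq promoter windows (GRCm38.p6, 250 bases before to 50 after a start) were given for 8 of the 10 genes, in 12 windows. Bhlhe40 and Per2 had no window, so their promoters were not searched. The E-box CACGTG, which reads the same on both strands, lay in windows of Bhlhe41, Cry1 and Per1. It lay in 7.15% of all 32851 windows and in windows of 8.09% of all 27025 genes. The REV-ERB and ROR half-site TAGGTCA, searched on both strands, lay in a window of Arntl, in 2.61% of all windows and in windows of 2.97% of all genes. The D-box TTATGTAA was in no member's window, in 0.938% of all windows and in windows of 1.11% of all genes. The motif letters do not overlap each other, and a match is a description and not a bound site. In the lines that follow, read 5′ to 3′ on the gene's strand, capitals mark the motif. A distance after the start counts the start base itself.

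Bhlhe41, E-box starting 153 bases before the start, chr6:145865541-145865600, minus strand: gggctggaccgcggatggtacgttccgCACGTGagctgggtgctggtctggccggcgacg
Cry1, E-box starting 60 bases before the start, chr10:85185082-85185141, minus strand: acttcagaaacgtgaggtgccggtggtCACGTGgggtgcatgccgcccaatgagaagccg
Per1, E-box starting 166 bases before the start, chr11:69098756-69098815, plus strand: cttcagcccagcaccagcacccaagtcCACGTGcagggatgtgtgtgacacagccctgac
Arntl, REV-ERB and ROR half-site starting 31 bases after the start, chr7:113207530-113207558, plus strand: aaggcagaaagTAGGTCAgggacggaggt

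Libraries of tolerant cells held 28302158 to 37834680 counts, and those of stimulated and untreated cells 34227368 to 39760356. Replicates 1 and 2 of the tolerant set stood apart from replicates 3 and 4 in each of its 3 groups: edgeR called 56.2% of genes between them. The labels do not say what the replicate number marks, so tolerant values are also given within each of these sets of replicates. Macrophage identity genes were abundant everywhere (8 genes, summed at 26681 to 46802 CPM, counts scaled to library size), and none was at 0. Stromal fibroblast genes (8 genes) summed to 415 to 2172 CPM with Gln, 47.8 to 199.9 CPM without it and 108 to 391 CPM with AKG, and none of the 8 was at 0 in any of these groups. In bulk RNA, fewer cells of a type and less RNA per cell cannot be told apart.

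In untreated macrophages, levels per kilobase of merged exon were highest for Nr1d2 (12.9 CPM per kb), followed by Bhlhe41 (7.98), Per1 (6.43), Bhlhe40 (5.58), Dbp (5.46) and Nr1d1 (4.63). Cry1 (2.99), Clock (2.93), Arntl (2.30) and Per2 (1.16 CPM per kb) were lower. The untreated libraries stood at 41.8 and 98.3 CPM for Nr1d2 and at 18.6 and 61.9 CPM for Clock, so the places of these genes in the order are not fixed. All other levels are CPM after TMM scaling within each table, and fold changes are log2 values from edgeR's quasi-likelihood test. A gene was called where its p, adjusted by Benjamini and Hochberg's method over all genes tested, was under 0.05.

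**Figure D1:**
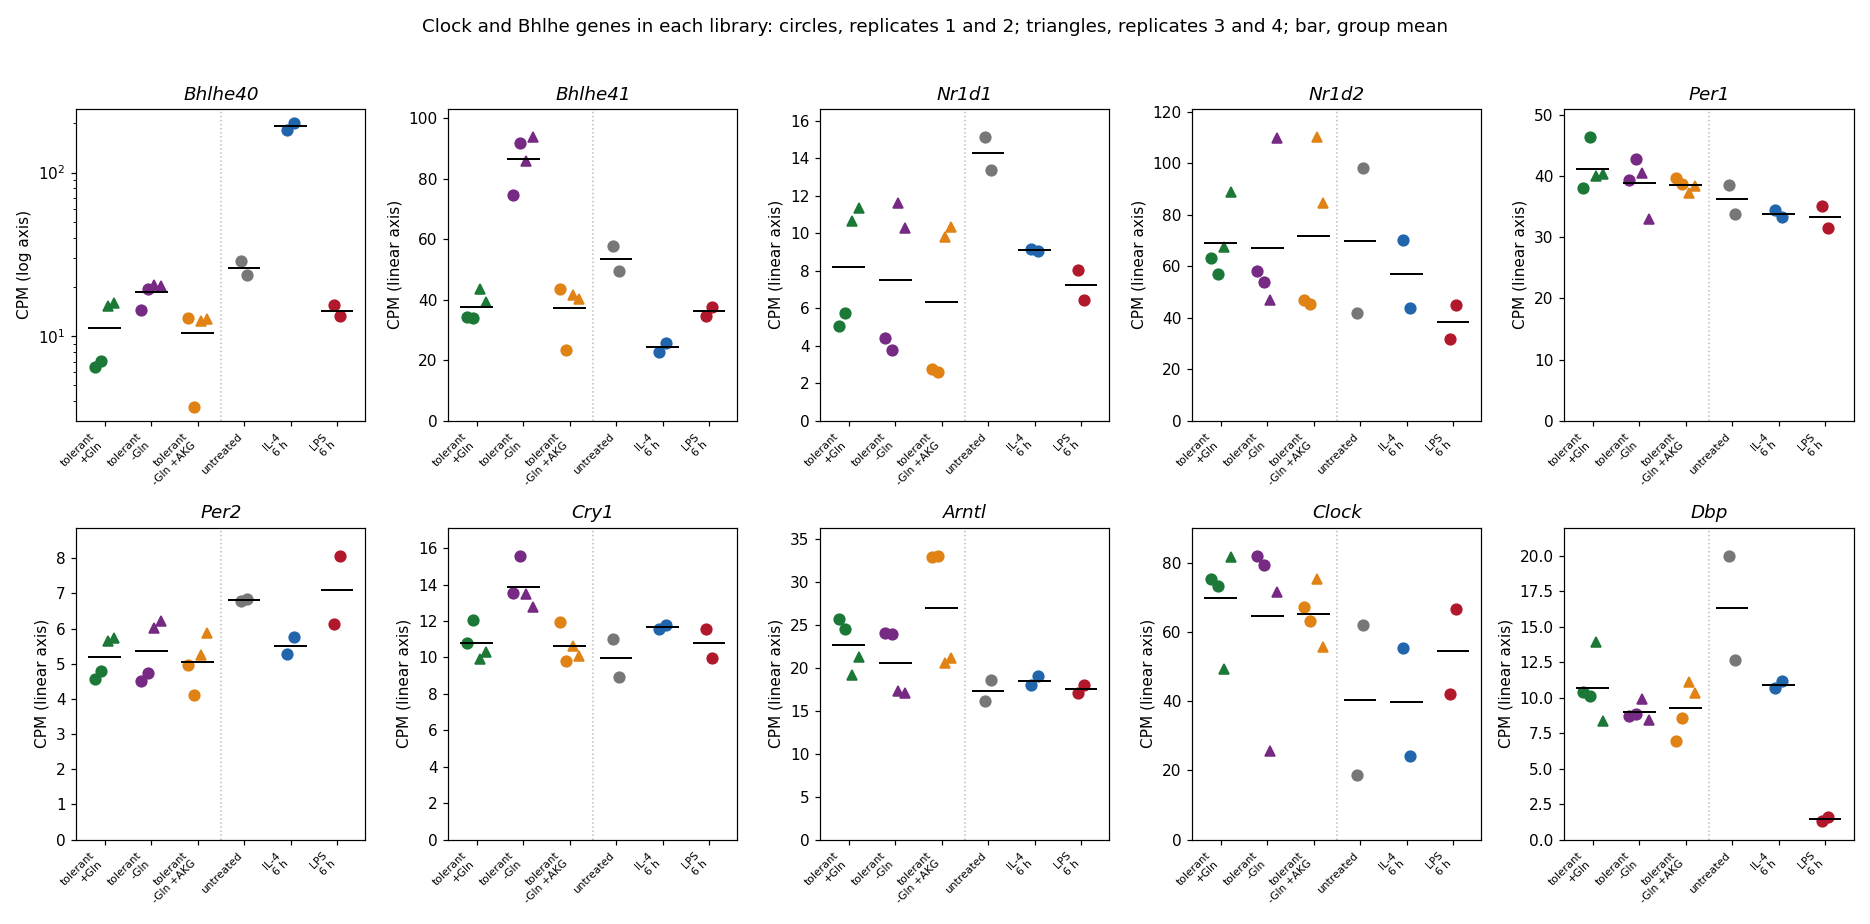
Level of each gene (CPM, y axis; log axis for Bhlhe40 only) in every library of the 6 groups (x axis), with the group mean as a bar and the 2 tables split by the dotted line. Bhlhe41 stood at 74.7 to 93.8 CPM in the 4 tolerant libraries without glutamine, above the other 14 libraries, Bhlhe40 at 183 and 201 CPM with IL-4, and Dbp at 1.29 and 1.57 CPM with LPS.

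The first question, which the series states as its aim, was how glutamine metabolism affects transcripts of tolerant macrophages. Among the 10 genes, Bhlhe41 was higher without Gln, by 2.29-fold, and Cry1 was higher by 1.28-fold without passing the test. The other 8 genes did not pass. The count of 1 called gene in 10 stands beside 4.78% of all 12492 genes tested, and the members' median log2 change was -0.06 against -0.01 over all genes.

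Bhlhe41 encodes the repressor DEC2 (chr6:145858243-145865558, minus strand). Its exons share 1280 bases with Gm43909 on the other strand, which was not analysed here. Its level with Gln was 34.3, 34.1, 43.5 and 39.1 CPM in replicates 1 to 4, and without Gln it was 74.7, 91.7, 85.8 and 93.8 CPM. Every library without Gln was higher than every library with it. The log2 fold change was 1.20 (SE 0.18, adjusted p = 0.0065). The rise was 1.28 within replicates 1 and 2 and 1.14 within replicates 3 and 4, and the difference between these did not pass (-0.16, SE 0.32, adjusted p = 0.85). Among all genes tested this was the 125th largest rise.

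Bhlhe40, which encodes the related repressor DEC1 (chr6:108660629-108666925, plus strand), depended on the replicates. It stood at 6.45 and 7.03 CPM in replicates 1 and 2 with Gln and at 15.3 and 15.9 CPM in replicates 3 and 4. Without Gln the values were 14.5, 19.6, 20.7 and 20.2 CPM. The lowest library without Gln lay below the highest 2 with Gln, so the groups overlapped, but within each set of replicates both libraries without Gln were higher. The change over all replicates was 0.74 (SE 0.40, adjusted p = 0.37), with an interval from -0.13 to 1.61. Replicates 1 and 2 alone gave 1.34 (SE 0.41, adjusted p = 0.039) and replicates 3 and 4 alone 0.41 (SE 0.08, adjusted p = 0.032). In those smaller fits 28.6% and 12.4% of all genes were called. With the replicate number as a block the change was 0.85 (adjusted p = 0.089).

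Cry1, a repressor of the CLOCK and ARNTL pair (chr10:85131700-85185064, minus strand), had 10.8, 12.1, 9.92 and 10.3 CPM with Gln and 13.5, 15.6, 13.5 and 12.8 CPM without it. Groups did not overlap, and for 6.57% of all genes every library without Gln was likewise the higher. The log2 change of 0.36 (SE 0.10, adjusted p = 0.063) passed with the replicate number as a block (0.36, adjusted p = 0.016, where 21.8% of genes were called) and in DESeq2 (0.35, adjusted p = 0.014, 9.27% called). Of the 3 genes printed with an E-box, Bhlhe41 was called and Cry1 and Per1 were not. Per1 stood at 38.0 to 46.3 CPM with Gln and 33.01 to 42.7 CPM without it, a change of -0.08 (SE 0.09, adjusted p = 0.72).

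The activator and REV-ERB genes gave no call for Gln withdrawal. Arntl had means of 22.7 ± 3.01 CPM (SD, n = 4) with Gln and 20.6 ± 3.97 CPM (SD, n = 4) without it. Nr1d1 had 8.19 ± 3.26 and 7.52 ± 3.997 CPM, and Dbp 10.7 ± 2.35 and 8.98 ± 0.657 CPM (SD, n = 4 each). Intervals of the log2 change were -0.56 to 0.29 for Arntl, -1.31 to 1.06 for Nr1d1 and -0.64 to 0.13 for Dbp. Changes within those bounds were not excluded here. Per2 stood at 4.58 to 5.72 CPM with Gln and at 4.52 to 6.22 CPM without it, so these ranges overlapped.

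AKG given to cells without Gln was the second comparison, which shares the 4 libraries without Gln with the first. Bhlhe41 fell by 2.33-fold and was the 1 gene of the 10 called, beside 1.54% of all genes. Its values with AKG were 43.6, 23.3, 41.6 and 40.3 CPM, all below the lowest library without Gln (74.7 CPM). The log2 change was -1.22 (SE 0.18, adjusted p = 0.012), -1.32 within replicates 1 and 2 and -1.13 within replicates 3 and 4. Replicate 2 with AKG was the lowest, and without it the change was -1.05 (adjusted p = 0.0075).

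Bhlhe40 had 12.99, 3.71, 12.4 and 12.7 CPM with AKG. All 4 lay below the lowest library without Gln (14.5 CPM), as was so for 5.08% of all genes. The change of -0.84 (SE 0.40, adjusted p = 0.41) did not pass. Leaving out replicate 2 with AKG gave -0.56 (adjusted p = 0.64), and replicates 3 and 4 alone gave -0.70 (SE 0.08, adjusted p = 0.015, where 5.14% of genes were called). Bhlhe40 was not called with the replicate block or in DESeq2. Cry1 had 11.97, 9.81, 10.6 and 10.1 CPM with AKG, all below the libraries without Gln, a log2 change of -0.38 (SE 0.10, adjusted p = 0.087) that passed with the block (-0.38, adjusted p = 0.018, 15.6% of genes called) and in DESeq2 (-0.37, adjusted p = 0.012, 5.33% called).

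Arntl (chr7:113207465-113314126, plus strand) was the member with a higher value under AKG that passed with the block. It stood at 24.1, 24.0, 17.2 and 17.1 CPM without Gln and at 32.9, 33.01, 20.5 and 21.2 CPM with AKG. Within each set of replicates both AKG libraries were higher, but over all 4 the groups overlapped. The change was 0.38 (SE 0.19, adjusted p = 0.44), and blocking on the replicate number gave 0.37 (SE 0.08, adjusted p = 0.011).

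Cells with AKG and without Gln were last set against cells with Gln. None of the 10 genes was called by edgeR, none had an unadjusted p under 0.05, and DESeq2 called 0, while edgeR called 0% of all genes. Bhlhe41 had means of 37.2 ± 9.36 CPM with AKG and 37.7 ± 4.47 CPM with Gln (SD, n = 4 each). The interval of its log2 difference, -0.40 to 0.36, did not include a change of the size seen on Gln withdrawal. For Bhlhe40 the interval ran from -0.96 to 0.77 and for Cry1 from -0.24 to 0.19.

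Nr1d1 (chr11:98767932-98775333, minus strand), the gene of REV-ERBα, differed most between the sets of replicates. It stood at 2.60 to 5.73 CPM in the 6 tolerant libraries of replicates 1 and 2 and at 9.77 to 11.6 CPM in the 6 of replicates 3 and 4. The difference of 1.43 log2 units (SE 0.13, adjusted p = 2.3e-06) was larger than any group difference of this gene in the tolerant set. Within replicates 1 and 2 its values went from 5.04 and 5.73 CPM with Gln to 4.42 and 3.77 CPM without Gln and 2.75 and 2.60 CPM with AKG. In that set AKG against Gln gave -1.01 (SE 0.14, adjusted p = 0.0026, where 11.6% of genes were called), and the effect differed between the sets of replicates (0.88, SE 0.17, adjusted p = 0.036, where 1.54% of genes passed). Stromal marker sums also differed between these sets, at 47.8 to 454 CPM in replicates 1 and 2 and 185 to 2172 CPM in replicates 3 and 4, and their part in the Nr1d1 difference was not tested.

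The other members showed the same split in part. Between replicates 3 and 4 and replicates 1 and 2, Nr1d2 was higher by 0.65 (SE 0.19, adjusted p = 0.013), Bhlhe40 by 0.68 (SE 0.24, adjusted p = 0.034) and Per2 by 0.32 (SE 0.07, adjusted p = 0.0016). Arntl was lower, at 19.4 CPM against 27.4 CPM on average (-0.49, SE 0.06, adjusted p = 2.5e-05). The other 5 genes did not pass, so 5 of 10 were called beside 56.2% of all genes, of which 29.7% were higher and 26.6% lower.

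**Figure D2:**
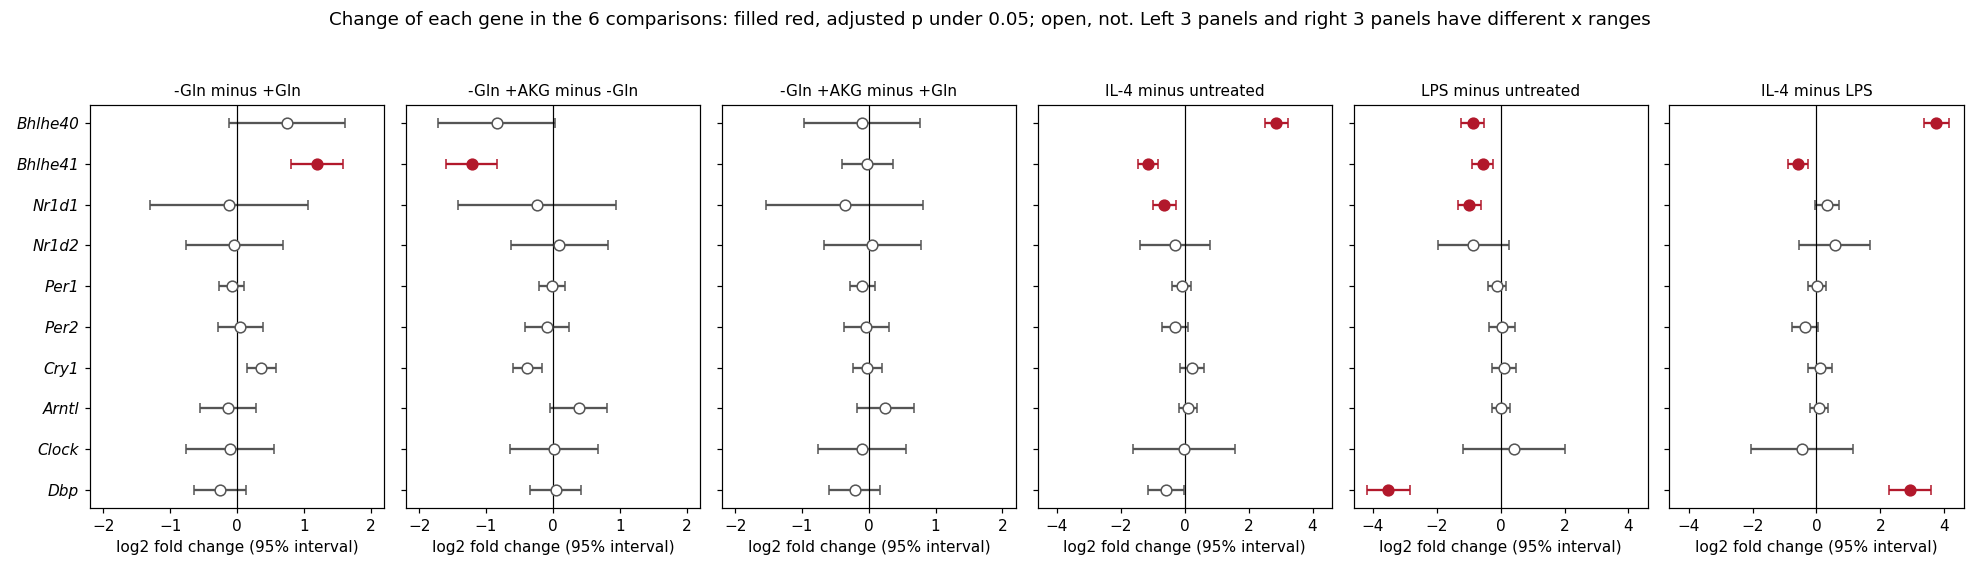
Log2 fold change (x axis) of each of the 10 genes (y axis) in the 6 comparisons, with 95% intervals; filled red points had an adjusted p under 0.05. In the tolerant comparisons Bhlhe41 was called at 1.20 and -1.22, and in the stimulation comparisons Bhlhe40 stood at 2.87 with IL-4 and Dbp at -3.51 with LPS, both against untreated cells.

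In the stimulation set the first question was what IL-4, the cytokine of alternative activation, did within 6 h. Bhlhe40 rose by 7.32-fold, Bhlhe41 fell by 2.21-fold and Nr1d1 fell by 1.56-fold. The other 7 genes did not pass, and 3 of 10 called stands beside 20.1% of all 12506 genes tested, 9.64% higher and 10.5% lower. The stimulation data hold 2 libraries per group, and edgeR pools the spread over genes. Markers of other cells moved with IL-4 too. Dendritic cell genes (4 genes, none at 0) summed to 0.657 to 0.744 CPM untreated and 6.30 to 6.88 CPM with IL-4, and 2 of the 3 tested rose, Zbtb46 by 4.07 (SE 0.23, adjusted p = 4e-04) and Flt3 by 3.19 (SE 0.30, adjusted p = 0.0018). The summed macrophage genes were at 34452 to 38316 CPM untreated and 26681 to 28810 CPM with IL-4. Of these 8 genes 3 were called lower and 5 were not called. Lyz2 fell from 23806 to 15177 CPM on average. Adgre1 (3372 CPM untreated and 3999 CPM with IL-4) and Csf1r (5458 and 5908 CPM) were among those not called. The part of these in the changes of the members was not tested.

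Bhlhe40 stood at 28.8 and 23.7 CPM in untreated cells and at 183 and 201 CPM with IL-4. Both IL-4 libraries were several times above all other libraries of the study. The log2 change was 2.87 (SE 0.15, adjusted p = 0.00036), the 169th largest rise of all genes. The paralogue Bhlhe41 moved the other way, from 57.8 and 49.4 CPM to 22.9 and 25.8 CPM (-1.14, SE 0.13, adjusted p = 0.0031).

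Nr1d1 fell with IL-4 from 15.1 and 13.4 CPM to 9.16 and 9.06 CPM (-0.65, SE 0.14, adjusted p = 0.030). Thra, which overlaps its exons on the other strand, fell as well (-0.77, SE 0.15, adjusted p = 0.020). This call was lost when untreated replicate 1 (-0.48, adjusted p = 0.12), IL-4 replicate 1 (-0.65, adjusted p = 0.17) or IL-4 replicate 2 (-0.64, adjusted p = 0.18) was left out. Dbp had 20.0 and 12.7 CPM untreated and 10.7 and 11.2 CPM with IL-4. Its change was -0.58 (SE 0.23, adjusted p = 0.15), which was -0.87 without untreated replicate 2 (adjusted p = 0.013) and -0.14 without untreated replicate 1 (adjusted p = 0.54). Per2, at 6.79 and 6.85 CPM untreated and 5.27 and 5.76 CPM with IL-4, did not pass either (-0.31, SE 0.16, adjusted p = 0.27). Nor did Cry1 (0.23, SE 0.15, adjusted p = 0.37).

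LPS, the Toll-like receptor 4 ligand of classical activation, was the second stimulus. Dbp fell by 11.4-fold, Nr1d1 by 1.97-fold, Bhlhe40 by 1.83-fold and Bhlhe41 by 1.48-fold. None of the 10 genes was called higher. Since 52.3% of all genes were called after LPS, 22.8% higher and 29.4% lower, 4 of 10 lower is a share near the background. Neutrophil genes (6 genes, with Ly6g at 0 in both groups) summed to 3.49 to 4.10 CPM untreated and 14.1 to 18.8 CPM with LPS, and 2 of the 4 tested rose, S100a8 by 3.07 (SE 0.24, adjusted p = 0.00024) and Camp (adjusted p = 0.0023). S100a8 went from 1.52 to 12.8 CPM on average. The other 2 tested, S100a9 (0.18, adjusted p = 0.5) and Ngp (0.17, adjusted p = 0.6), did not pass. The part of neutrophil genes in the changes of the members was not tested.

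Dbp encodes a D-box activator (chr7:45705088-45710203, plus strand). Its 20.0 and 12.7 CPM in untreated cells went to 1.29 and 1.57 CPM with LPS, from 37 and 45 counts per library. Both LPS libraries were below all other 16 libraries, whose lowest value was 6.94 CPM. The log2 change was -3.51 (SE 0.27, adjusted p = 0.00024), the 153rd largest fall of all genes, and it stayed between -3.80 and -3.05 when any one library was left out. The exons of Dbp share 539 bases with Sphk2 on the other strand, and Sphk2 was higher after LPS (128 and 225 CPM on average, log2 change 0.81, SE 0.16, adjusted p = 0.0068).

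Nr1d1 fell with LPS to 8.04 and 6.46 CPM from 15.1 and 13.4 CPM (-0.97, SE 0.15, adjusted p = 0.0028). Its exons share 263 bases with Thra on the other strand, which fell as well (-0.83, SE 0.15, adjusted p = 0.0060), and the sources used here do not say whether reads were counted by strand. Bhlhe40 fell from 28.8 and 23.7 CPM to 15.4 and 13.3 CPM (-0.87, SE 0.14, adjusted p = 0.0040). Its exons share 118 bases with 0610040F04Rik on the other strand (at 0 in all 6 stimulation libraries). Bhlhe41 stood at 34.7 and 37.7 CPM with LPS (-0.57, SE 0.13, adjusted p = 0.013). That call was lost without untreated replicate 1 (-0.35, adjusted p = 0.056) and without LPS replicate 1 (-0.51, adjusted p = 0.083).

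Of the members, Arntl, Clock, Per1, Per2 and Cry1 were not called with either stimulus. Arntl stood between 16.1 and 19.0 CPM in all 6 libraries, with log2 changes of 0.09 with IL-4 and 0.02 with LPS. Per1 stood between 31.5 and 38.6 CPM, with changes of -0.10 and -0.12. The intervals for LPS were -0.27 to 0.30 for Arntl and -0.41 to 0.17 for Per1, which is far from the changes of Dbp. Per2 and Cry1 had 6.12 and 8.07 CPM and 11.6 and 9.99 CPM with LPS, against 6.79 and 6.85 CPM and 11.04 and 8.91 CPM untreated.

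IL-4 and LPS were then compared directly. Bhlhe40 was 13.4-fold higher with IL-4 (3.74, SE 0.16, adjusted p = 3.3e-05) and Dbp 7.63-fold higher (2.93, SE 0.27, adjusted p = 0.00039). Bhlhe41 was lower with IL-4 than with LPS (-0.58, SE 0.13, adjusted p = 0.012), a call lost without LPS replicate 2 (adjusted p = 0.069) or without IL-4 replicate 1 (adjusted p = 0.091). The 3 calls in 10 stand beside 53.1% of all genes, 29.7% higher and 23.4% lower. Nr1d1 had 0.33 (SE 0.15, adjusted p = 0.11), so its levels under the 2 stimuli were not shown to differ.

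Clock and Nr1d2 varied widely between replicates in the stimulation set, and neither was called there. In untreated cells Clock (chr5:76209868-76304792, minus strand) had 18.6 CPM in replicate 1 and 61.9 CPM in replicate 2, and Nr1d2 (chr14:18204054-18239127, minus strand) had 41.8 and 98.3 CPM. With IL-4 the values of Clock were 55.2 and 24.1 CPM and those of Nr1d2 70.3 and 43.8 CPM. With LPS they were 42.1 and 66.7 CPM for Clock and 31.97 and 45.05 CPM for Nr1d2. In each stimulation group the library that was low for one gene was low for the other. With 2 libraries per group such a match can arise by chance, and it was not tested. Replicate 3 without Gln was the lowest tolerant library for Clock (25.6 CPM) and the lowest of its group for Nr1d2 (47.1 CPM). The other tolerant groups showed no such match. With Gln, Clock was lowest in replicate 3 (49.2 CPM) and Nr1d2 in replicate 2 (57.0 CPM). With AKG, Clock was lowest in replicate 4 (55.5 CPM) and Nr1d2 in replicate 2 (45.2 CPM). Between the 2 untreated libraries 8.4% of all genes differed by more than 1 log2 unit, and for the LPS and IL-4 groups these shares were 3.49% and 4.13%. Intervals of the log2 change with LPS ran from -1.16 to 2.03 for Clock and from -1.97 to 0.25 for Nr1d2. Without untreated replicate 1, Nr1d2 gave -1.26 with LPS (adjusted p = 0.031), and without untreated replicate 2 it gave -0.12 (adjusted p = 0.78). In the tolerant set neither gene was called over all replicates. Within replicates 1 and 2, Clock had 81.9 and 79.4 CPM without Gln and 67.2 and 62.98 CPM with AKG, and Nr1d2 had 58.1 and 53.9 CPM against 46.8 and 45.2 CPM. Both AKG libraries were lower for both genes. Clock gave -0.31 there (SE 0.05, adjusted p = 0.0038) and Nr1d2 -0.28 (SE 0.07, adjusted p = 0.018), where 23.3% of all genes were called. Against Gln in that set Nr1d2 gave -0.39 (SE 0.07, adjusted p = 0.0077). Replicates 3 and 4 gave 0.44 for Clock (adjusted p = 0.70) and 0.32 for Nr1d2 (adjusted p = 0.72) for AKG against no Gln, and the difference between the sets passed for neither (adjusted p = 0.82 each).

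**Figure D3:**
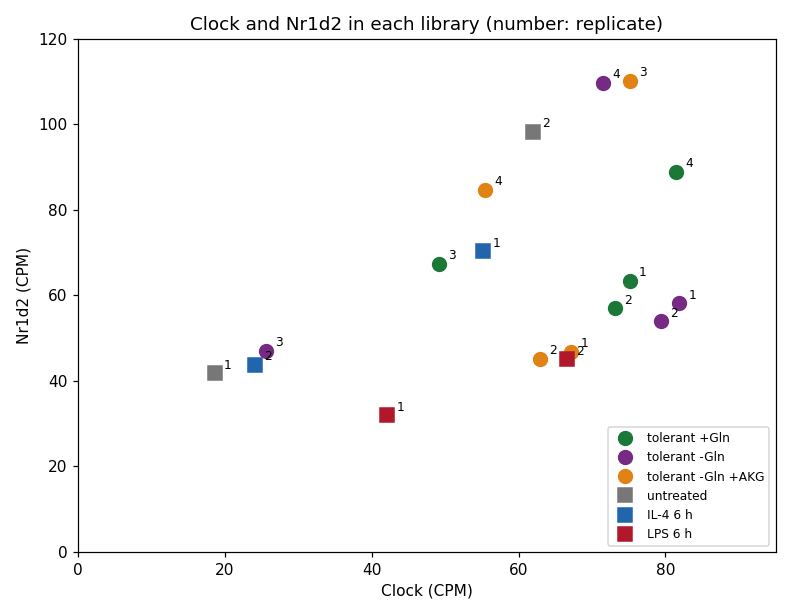
Clock (x axis, CPM) against Nr1d2 (y axis, CPM) in each of the 18 libraries, coloured by group, with the replicate number beside each point. The lowest 3 Clock libraries, at 18.6, 24.1 and 25.6 CPM, belong to 3 different groups and have Nr1d2 at 41.8, 43.8 and 47.1 CPM. In the tolerant groups with glutamine and with AKG, the library lowest for Clock was not the lowest for Nr1d2.

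Across all 6 groups the tables share no library and were scaled separately, so the order of levels is a description. Mean Bhlhe40 was 192 CPM with IL-4, 26.2 untreated, 18.7 in tolerant cells without Gln, 14.3 with LPS, 11.2 in tolerant cells with Gln and 10.5 CPM with AKG. Among the 3 tolerant groups no Bhlhe40 difference passed, while the 3 stimulation groups each differed from the others. Mean Bhlhe41 was 86.5 CPM in tolerant cells without Gln, 53.6 untreated, 37.7 with Gln, 37.2 with AKG, 36.2 with LPS and 24.3 CPM with IL-4. One scaling over all 18 libraries put LPS (39.1 CPM) before Gln (36.4 CPM) and AKG (36.2 CPM), so these 3 have no fixed order. Mean Dbp was 16.3 CPM untreated, 10.9 with IL-4, 10.7, 9.25 and 8.98 CPM in tolerant cells with Gln, with AKG and without Gln, and 1.43 CPM with LPS. Mean Nr1d1 was 14.3 CPM untreated, 9.11 with IL-4, 8.19 in tolerant cells with Gln, 7.52 without Gln, 7.25 with LPS and 6.36 CPM with AKG. The joint scaling put LPS (7.84 CPM) before no Gln (7.33 CPM) and next to Gln (7.87 CPM), so this order is not fixed either.

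Genes with the most similar profiles were found by the root mean square difference of log2 CPM after centring each gene on its mean. For Bhlhe40 over the 12 tolerant libraries these were Vash2 (0.201), Egr2 (0.211) and Dcbld2 (0.284), where the median gene differed by 0.762. Over the 6 stimulation libraries they were Slc2a4 (0.105), P2rx5 (0.138) and Hid1 (0.138; median gene 1.61). For Dbp the nearest in the stimulation set were Tbc1d2 (0.14), Klc4 (0.167) and Arl11 (0.183; median gene 1.51), and in the tolerant set Sh3bp5 (0.150), Lsm7 (0.157) and Snx3 (0.158; median gene 0.342). For Nr1d1 they were Ncs1 (0.217), Cat (0.229) and Sphk1 (0.231) in the tolerant set and Zbtb42 (0.0527), Lrsam1 (0.0628) and Abhd12 (0.0639) in the stimulation set. Per1, which varied little, was nearest to Khsrp, Gtf3c1 and Fam65a (0.0548 to 0.0562) and to Carkd, Abt1 and Tmem161a (0.0265 to 0.0273). Libraries of a profile share their groups and, in the tolerant set, the split of replicates.

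Other clock transcription factors with enough counts to test numbered 8. After LPS 3 rose and 5 fell, where 22.8% of all genes were called higher and 29.4% lower, with a median of -1.54 against -0.10 over all genes. Per3, a period gene, fell by 2.41 on the log2 scale (SE 0.15, adjusted p = 0.00012), from 21.7 to 4.10 CPM, and Tef, a D-box activator related to DBP, fell by 1.69 (SE 0.13, adjusted p = 0.00024), from 143 to 44.2 CPM. Ciart, a repressor of the CLOCK and ARNTL pair, rose by 1.81 (SE 0.14, adjusted p = 0.00022) and Nfil3, a D-box repressor, by 1.25 (SE 0.21, adjusted p = 0.0039). Cry2 rose by 0.79 (SE 0.13, adjusted p = 0.0035), while Npas2, a relative of CLOCK at 0.640 CPM untreated, fell by 2.58 (SE 0.34, adjusted p = 0.0017). The remaining called genes, Arntl2 and Rora, had -1.81 (adjusted p = 0.026) and -1.40 (adjusted p = 0.045).

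With IL-4, 1 of these 8 genes rose and 2 fell, where 9.64% of all genes were called higher and 10.5% lower. Nfil3 rose by 2.75 (SE 0.21, adjusted p = 0.00094), from 15.6 to 105 CPM, Per3 fell by 0.81 (SE 0.14, adjusted p = 0.012) and Ciart fell by 0.58 (SE 0.14, adjusted p = 0.039). Nfil3 was also higher with IL-4 than with LPS (1.5, SE 0.21, adjusted p = 0.0018), and Ciart was lower (-2.38, SE 0.14, adjusted p = 8.5e-05). In the tolerant set Arntl2 fell without Gln (-0.80, SE 0.17, adjusted p = 0.021, 0.833 against 1.45 CPM), and the other 7 did not pass, beside 4.78% of all genes called. The replicate block called 3 of the 8 (1 higher and 2 lower, with 21.8% of all genes called), and DESeq2 called 3. Npas2 (0.98, SE 0.26, adjusted p = 0.057) and Per3 (-0.44, SE 0.12, adjusted p = 0.069) lay near the threshold.

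Among 13 kinases, ligases and partners of clock proteins, all tested, 3 rose and 3 fell after LPS, near the shares over all genes (22.8% higher and 29.4% lower). Usp2, a deubiquitinase whose gene is a clock output, fell by 3.12 (SE 0.17, adjusted p = 9e-05), from 17.7 to 2.04 CPM, and the casein kinase gene Csnk1e fell by 1.32 (SE 0.10, adjusted p = 0.00023). Btrc had -0.38 (adjusted p = 0.033). Timeless rose by 1.35 (SE 0.19, adjusted p = 0.0021), Nono by 0.75 (SE 0.09, adjusted p = 0.00094) and Fbxw11 by 0.68 (SE 0.10, adjusted p = 0.0026). With IL-4, where 20.1% of all genes were called, Csnk1d rose by 0.52 (SE 0.11, adjusted p = 0.029) and Csnk1e fell by 0.42 (SE 0.10, adjusted p = 0.035). For Gln withdrawal edgeR called 0 of the 13, with 2 at an unadjusted p under 0.05 and 1 called by DESeq2. Over all 12492 genes these counts were 597, 2245 and 1229. For AKG against no Gln they were 0, 2 and 2 of the 13, and 192, 1632 and 667 over all genes.

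**Figure D4:**
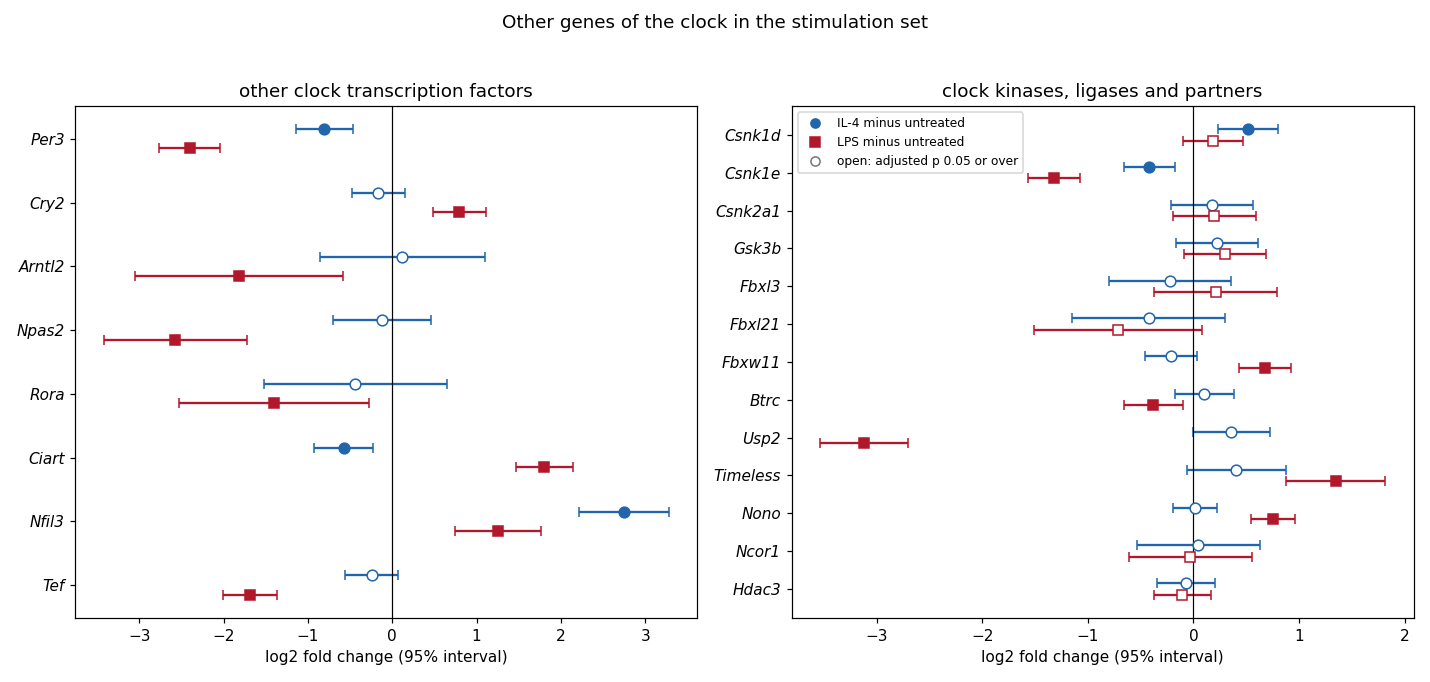
Log2 fold change (x axis, 95% interval) after IL-4 (blue circles) and LPS (red squares) for other clock transcription factors (left) and for kinases, ligases and partners of clock proteins (right); filled points had an adjusted p under 0.05. Usp2 (-3.12), Npas2 (-2.58) and Per3 (-2.41) had the lowest values after LPS, and Nfil3 (2.75) the highest after IL-4.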

How the data were processed

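The deposited tables hold raw counts per gene symbol. Per the submitters' processing notes the authors used the mm10 genome, the aligner STAR and the counter HTSeq, for which the sources used here give neither versions nor the strand setting. Libraries were stranded TruSeq from total RNA per the labels' protocols. All groups of a table entered 1 fit, made with R 4.3.3 and edgeR 4.0.16 (with limma 3.58.1): filterByExpr, TMM, glmQLFit and glmQLFTest, leaving 9 and 3 residual degrees of freedom and 12492 and 12506 genes tested. Each SE belongs to a log2 fold change, and intervals are 95% t intervals. Exon lengths and positions come from GENCODE vM21 (GRCm38), and promoters from RefSeq (GRCm38.p6).

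The members and lists were chosen with earlier results of these data known. Named genes were the 10 members, up to 6 called genes per pathway list and comparison by smallest p, and the 3 nearest profiles of 4 members. Named beyond this rule, after their values were seen, were Rora and Arntl2 after LPS, Npas2 and Per3 on Gln withdrawal, uncalled values of pathway genes, overlapping genes and marker genes. Alternatives were RLE size factors, no filter, DESeq2 1.42.0, the replicate block, replicates 1 and 2 or 3 and 4 alone, and leaving out single libraries. Chosen after seeing the data were 1 scaling over all libraries, the replicate sets as a term or an interaction, and a crossed block.

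Same-number libraries of the tolerant set deviated together from their group means (correlations 0.39 to 0.854 over 12 pairs), as did libraries of the same set with another number (0.372 to 0.862), so the block also removes the split of replicates. In the stimulation set the 6 same-number values ran from -0.81 to 0.711. With 2 libraries per group the deviations mirror each other, so these values are not independent. Those for different numbers (-0.711 to 0.81) are the same with the sign turned. The numbers were not shown to pair these libraries. Figures used matplotlib 3.10.9. Some genes of the lists are not reported here.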

Additional observations from a re-analysis of the deposited data

Results flagged for a closer look

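Replicate 2 of the tolerant cells given AKG stood far below the other 3 libraries of its group for both BHLHE genes. Bhlhe40 was at 3.71 CPM there, against 12.4 to 12.99 CPM in the others, and Bhlhe41 was at 23.3 CPM against 40.3 to 43.6 CPM. Of 30 groups of 4 checked, chance alone would flag about 1 in 20, and these were the 2 that exceeded the limit.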

How the results depend on the processing

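The calls of Bhlhe41 in both Gln comparisons, of Bhlhe40 and Bhlhe41 with IL-4 and of Dbp with LPS held under the alternatives run. For Gln withdrawal 1 of the 10 genes was called, and 2 were called with the replicate block, in replicates 1 and 2 alone, in replicates 3 and 4 alone, with the replicate sets as a term and in DESeq2. For AKG against no Gln the count of 1 became 3 with the replicate block, 6 and 2 in the 2 replicate sets alone, 3 with the sets as a term and 2 in DESeq2. For AKG against Gln the count of 0 became 3 in replicates 1 and 2 alone. Leaving out single libraries gave 1, 1 and 0 calls in these comparisons, 2 to 4 with IL-4, 3 to 4 with LPS and 2 to 4 between them. In the stimulation set this leaves 1 library in a group, which is assumed to vary like the others.

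Over all genes, calls for Gln withdrawal went from 597 to 2724 with the replicate block, 3574 and 1544 in the sets alone, 3117 with the sets as a term, 1283 in DESeq2 and 254 without replicate 2 lacking Gln. For AKG against no Gln they went from 192 to 1945, 2908, 642, 2347 and 667 in the same order, 106 with no filter and 29 without replicate 2 with AKG. For AKG against Gln they went from 0 to 884, 1446, 720, 1155 and 230. With IL-4 they went from 2513 to 880 and 914 without either IL-4 library. In the stimulation set the replicate block left 3, 4 and 3 members called. With IL-4 numbers exchanged, the crossed block gave 3, 5 and 4 members and 3988 genes for IL-4.

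Signs changed for genes not called by the fit of all libraries. Replicates 1 and 2 alone gave -0.020 for Per2 and 0.12 for Clock on Gln withdrawal, -0.28 for Nr1d2, -0.31 for Clock and -0.18 for Dbp with AKG against no Gln, and 0.30 for Bhlhe40 and -0.39 for Nr1d2 against Gln. Of these, Clock (adjusted p = 0.0038) and Nr1d2 (adjusted p = 0.018 and 0.0077) with AKG passed in that fit. Replicates 3 and 4 alone gave 0.014 for Nr1d1 and 0.027 for Nr1d2 on withdrawal, 0.049 for Per1 with AKG, and 0.014 for Bhlhe41, 0.061 for Cry1 and 0.030 for Clock against Gln. The sets as a term gave -0.022 for Nr1d2 against Gln. Clock with IL-4 was 0.0070 with RLE, 0.17 with the replicate block and 0.012 in DESeq2, and Arntl with LPS was -0.010 without a filter. Between the stimuli RLE and DESeq2 gave -0.064 and -0.062 for Per1, and -0.0062 and -0.0038 for Arntl. The cause was not tested.

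Single libraries left out gave these ranges. On withdrawal they were -0.40 to 0.10 for Nr1d1, -0.38 to 0.11 for Nr1d2, -0.028 to 0.13 for Per2 and -0.25 to 0.16 for Clock. With AKG against no Gln they were -0.57 to 0.055 for Nr1d1, -0.19 to 0.44 for Nr1d2, -0.086 to 0.033 for Per1, -0.24 to 0.15 for Clock and -0.058 to 0.15 for Dbp. Against Gln they were -0.29 to 0.19 for Bhlhe40, -0.11 to 0.15 for Bhlhe41, -0.23 to 0.22 for Nr1d2, -0.12 to 0.052 for Per2 and -0.081 to 0.038 for Cry1. With IL-4 they were -0.70 to 0.45 for Nr1d2, -0.19 to 0.080 for Per1 and -0.74 to 1.09 for Clock. With LPS they were -0.21 to 0.073 for Per1, -0.16 to 0.24 for Per2, -0.035 to 0.37 for Cry1, -0.023 to 0.12 for Arntl and -0.094 to 1.55 for Clock. Between the stimuli they were -0.056 to 0.10 for Per1 and -1.18 to 0.022 for Clock.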

Other observations

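Genes described as held down by REV-ERB in macrophages (Mmp9, Cx3cr1, Ccl2 and Il6) did not move as one. After LPS, when Nr1d1 fell, Ccl2, a monocyte chemokine, rose by 3.45 (SE 0.14, adjusted p = 4.3e-05), Mmp9, a gelatinase, rose by 1.44 (SE 0.24, adjusted p = 0.0041) and Il6 rose from 0.0240 to 4.79 CPM (adjusted p = 0.00049), while Cx3cr1, the fractalkine receptor, fell by 1.52 (SE 0.11, adjusted p = 0.00019). After IL-4, when Nr1d1 also fell, Ccl2 rose by 2.92 (SE 0.13, adjusted p = 0.00025) and Cx3cr1 fell by 4.70 (SE 0.13, adjusted p = 7.1e-05), while Mmp9 had -0.31 (adjusted p = 0.45). Without Gln, Il6 rose by 2.95 (SE 0.68, adjusted p = 0.033) and Cx3cr1 fell by 1.31 (SE 0.33, adjusted p = 0.046). Mean Il6 was low, at 0.349 CPM with Gln and 2.74 CPM without it, where libraries ran from 0.569 to 6.08 CPM. In the tolerant set Il6 was also higher in replicates 3 and 4 than in 1 and 2 (1.74, SE 0.42, adjusted p = 0.0042). So was Cx3cr1 (0.60, SE 0.20, adjusted p = 0.025).

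Among genes described as held down by BHLHE40 or BHLHE41, Il10 had 8.06 CPM untreated, 5.595 CPM with IL-4 (-0.53, SE 0.20, adjusted p = 0.14) and 32.1 CPM with LPS (1.99, SE 0.20, adjusted p = 0.00064). Maf fell with IL-4 (-0.80, SE 0.11, adjusted p = 0.0060), where Bhlhe40 was highest and Bhlhe41 lowest, and rose with LPS (1.14, SE 0.11, adjusted p = 0.00054). Maf also rose with AKG in cells without Gln (0.55, SE 0.09, adjusted p = 0.019), where Bhlhe41 fell.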
